A study of Mus musculus with 12 samples.

Results

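The BCL2 family and its partner in the cell-death machinery were examined in developing spiral ganglion neurons, which link the hair cells of the cochlea with the brainstem. The set holds 9 genes taken by symbol, and all 9 were found among the 25674 gene identifiers of the count table. They were Bcl2, Bcl2l1 and Mcl1, which favour survival, and Bax, Bak1, Bcl2l11, Bbc3, Hrk and Apaf1, which favour death. Measured values played no part in the rule, but the set was chosen with earlier results of these data known.

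Neurons carrying the red reporter tdTomato were sorted at E14.5 (embryonic day), with 100 cells per sample, and 6 samples of each genotype were sequenced. Control embryos were Neurod1Cre;Rosa26tdTOM and mutant embryos, labelled ISL1CKO, were Neurod1Cre;Isl1loxP/loxP;Rosa26tdTOM, so both groups carried Cre and the reporter. Cre came from the transgene Tg(Neurod1-cre)1Able, a bacterial artificial chromosome with the Neurod1 promoter, the floxed allele was Isl1tm2Sev and the reporter was Ai14, on a mixed C57BL/6/sv129 background. Each sample pooled the ganglia of both ears of an embryo of either sex, from 4 litters in all, and the reporter marks cells in which Cre has acted rather than cells that have lost ISL1.

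Apoptosis through the mitochondrion is set by contacts within the BCL2 family. Pro-survival members hold the effectors BAX and BAK in check, BH3-only members bind the pro-survival proteins or the effectors through a short helix, the BH3 segment, and active effectors open the outer mitochondrial membrane. Cytochrome c then assembles APAF1 into the apoptosome, which starts the caspases. In the embryonic inner ear, sensory neurons depend on neurotrophins for survival, and surplus neurons are removed by this route.

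The libraries held 11895603 to 13857480 counts, and 3 counts, the lowest number read as a signal, corresponded to 0.219 to 0.250 CPM after TMM scaling, where CPM is a gene's count scaled to a common library size. A label tag numbers the samples as technical replicates while the design text calls them biological, so the p-values measure only the spread between these libraries, which may be technical. The count of the targeted gene did not separate the groups: Isl1 stood at 1391 ± 184 CPM in libraries labelled ISL1CKO and 1538 ± 217 CPM in controls (SD, n = 6; difference of -0.15 on the log2 scale, edgeR quasi-likelihood test with Benjamini-Hochberg adjustment, adjusted p = 0.460). A count over the whole gene can also take reads from exons outside the floxed part, so it checks the labels only weakly. Libraries 2, 3 and 5 labelled ISL1CKO held transcripts of both sexes, with Xist at 62.9, 77.8 and 132 CPM and a mean of the Y-linked genes at 61.0, 87.3 and 35.7 CPM, which no other library did. The tests of the 9 members and of the called pathway genes are therefore given with and without these 3 libraries. Neuronal markers were abundant in all libraries, with the 10 markers summing to 8986 to 12015 CPM in libraries labelled ISL1CKO and to 9537 to 12257 CPM in controls. Among them 2 rose, Neurod1 and Rbfox3, and 4 fell, Gata3, Elavl4, Ntrk2 and Ntrk3 (edgeR, adjusted p under 0.05).

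The 8 BCL2 family members share the BH3 segment, and its coding sequence is given below for each. Each line gives 42 bases of the coding strand, 5′ to 3′, read from the GENCODE M21 transcripts on GRCm38, with the 7 codons of the BH3 core in capitals. Every one of these stretches lies within a single coding exon, and Apaf1, which is not a BCL2 protein, held no match.
Bcl2, chr1:106712572-106712613, minus strand: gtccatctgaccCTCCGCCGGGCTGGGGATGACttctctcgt
Bcl2l1, chr2:152829694-152829735, minus strand: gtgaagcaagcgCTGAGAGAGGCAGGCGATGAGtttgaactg
Mcl1, chr3:95659424-95659465, plus strand: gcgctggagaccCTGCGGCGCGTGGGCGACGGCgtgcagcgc
Bax, chr7:45465994-45466035, minus strand: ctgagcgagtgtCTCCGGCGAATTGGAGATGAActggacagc
Bak1, chr17:27022528-27022569, minus strand: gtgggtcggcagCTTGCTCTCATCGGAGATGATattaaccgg
Bcl2l11, chr2:128147138-128147179, plus strand: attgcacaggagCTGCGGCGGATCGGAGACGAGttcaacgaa
Bbc3, chr7:16313761-16313802, plus strand: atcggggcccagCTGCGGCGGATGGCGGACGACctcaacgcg
Hrk, chr5:118169879-118169920, plus strand: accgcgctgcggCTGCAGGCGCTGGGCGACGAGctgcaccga

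Of the 21 core bases of Hrk, 15 were the same in Bcl2l11, 14 in Bbc3 and in Mcl1, 13 in Bcl2l1, 11 in Bax, 10 in Bcl2 and 9 in Bak1. The stretches were picked by an amino acid pattern for the core, so part of this likeness is built in. The longest reading frame of Hrk spans 92 codons, the shortest of the set, against 192 for Bax, 236 for Bcl2 and 331 for Mcl1. Outside this segment BH3-only proteins have little in common with the other members, and the core is where they meet the groove of a pro-survival partner.

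Hrk was the only member past the threshold in the test of all genes, and it rose about 5-fold in libraries labelled ISL1CKO. All 9 members passed the expression filter and were tested, and 1 of 9 was called higher and 0 lower. Among all 14813 genes tested, 10.2% were called in either direction, 5.01% higher and 5.19% lower. By role, 0 of 3 pro-survival and 1 of 6 pro-death members were called. No pro-survival member had an unadjusted p under 0.05, or was called by DESeq2 or limma-voom. An unadjusted edgeR p under 0.05 was found for 3 pro-death members, with Hrk and Apaf1 higher and Bax lower. Such p-values were common: the gene ranked 3300 by p among all 14813 genes tested still had an unadjusted edgeR p of 0.0449. The median log2 fold change was -0.16 over the pro-survival members, -0.063 over the pro-death members and 0.0045 over all genes tested. The groups did not overlap for 1 member, Hrk, against 6.78% of all genes tested. Without the 3 libraries that held transcripts of both sexes, the count was again 1 of 9, while fewer genes were called over all genes. In RNA from pooled cells, fewer cells of a kind and less RNA per cell cannot be told apart.

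**Figure D1:**
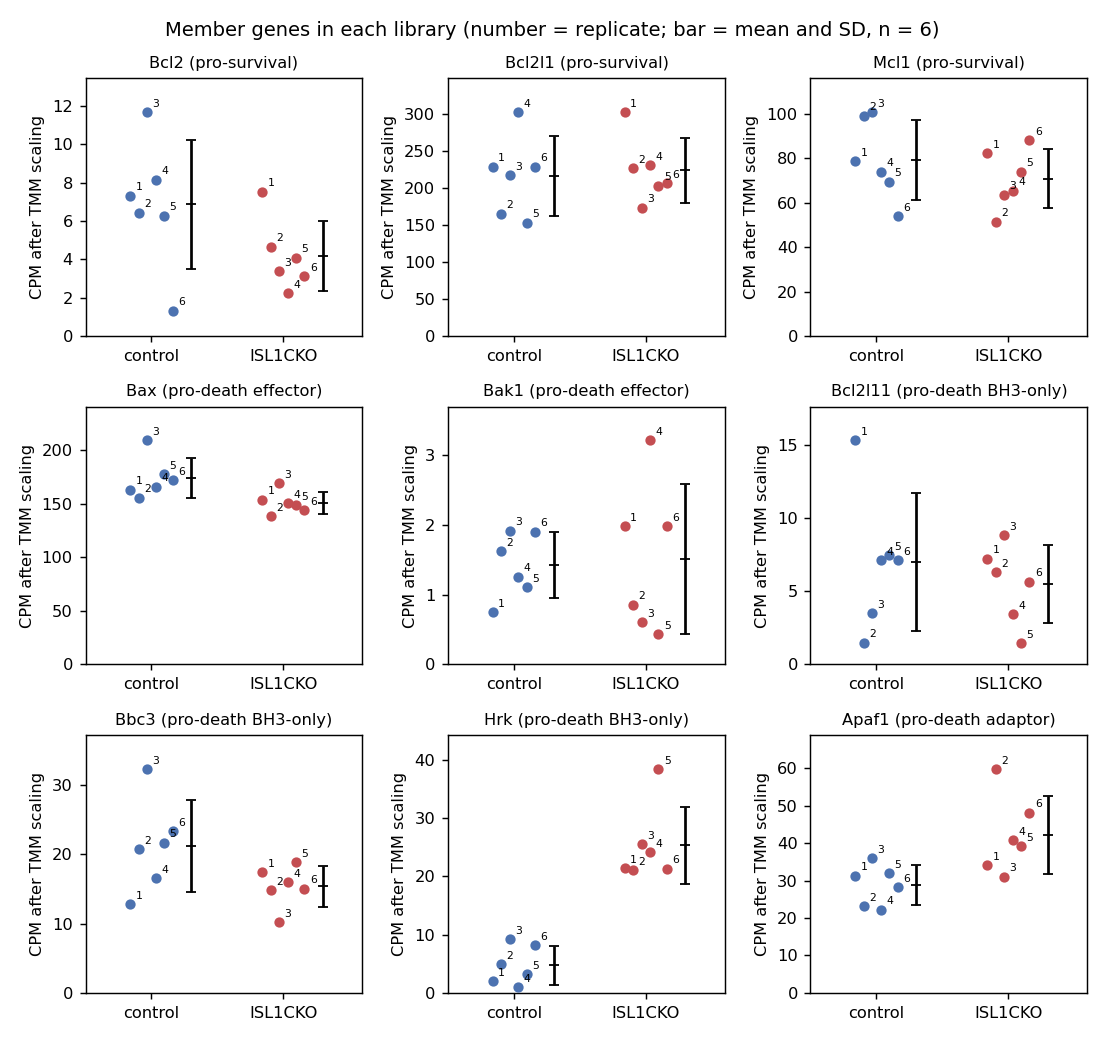
Level of each of the 9 members in CPM after TMM scaling, a panel per gene on an axis from 0, with each numbered point a library and the bar its group's mean and SD (n = 6). Only in the Hrk panel do all 6 libraries labelled ISL1CKO (21.0 to 38.4 CPM) sit above all 6 controls (0.963 to 9.18 CPM).

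**Figure D2:**
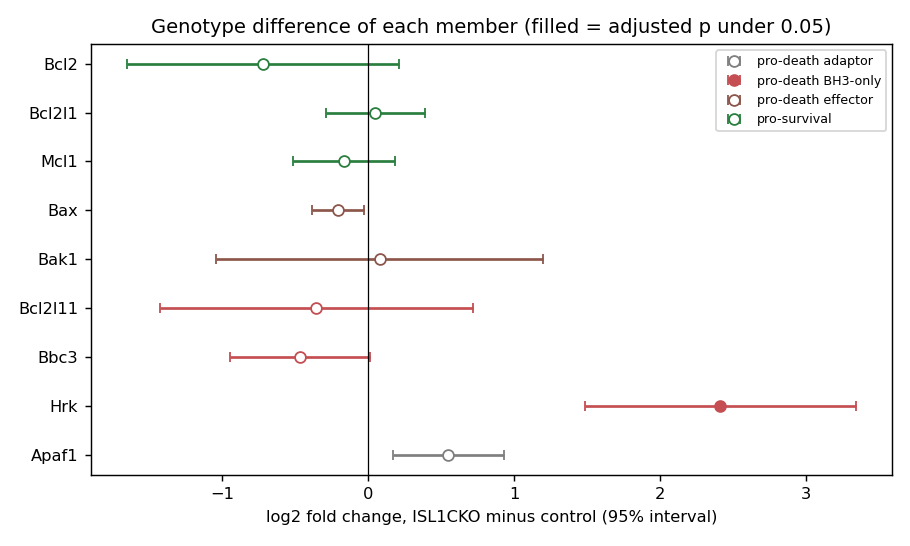
Log2 fold change of each member, ISL1CKO minus control, with its 95% interval from the edgeR fit, coloured by role and filled where the adjusted p is under 0.05. Hrk at 2.41 is the only filled point, and the intervals of Bax (-0.38 to -0.027) and Apaf1 (0.17 to 0.93) also leave out 0 without passing adjustment over all genes.

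The pro-survival members are the guards of the pathway, each protein binding and silencing its own range of BH3-only partners. Bcl2, the founding member, is on chromosome 1 (chr1:106538178-106714274, minus strand). Its lowest, median and highest levels were 2.24, 3.74 and 7.52 CPM in libraries labelled ISL1CKO and 1.32, 6.87 and 11.7 CPM in controls. The groups overlapped over most of their range, since control 6 held the lowest value of all and ISL1CKO 1 lay above the control median. The log2 fold change was -0.72 (SE 0.44, 95% interval -1.65 to 0.21), with an edgeR adjusted p of 0.355, and -0.68 without the 3 libraries. Bcl2 shares exonic sequence with the antisense gene D630008O14Rik, which held 0 to 11 counts per library, and the use of strand in counting is not given in the sources used here.

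Bcl2l1 encodes BCL-XL, the pro-survival protein most often linked to the upkeep of neurons, and lies on chromosome 2 (chr2:152780668-152831728, minus strand). It was the most abundant of the pro-survival members, at 174, 217 and 303 CPM (lowest, median, highest) in libraries labelled ISL1CKO and 153, 224 and 303 CPM in controls. The groups covered nearly the same range, with ISL1CKO 1 and control 4 level at the top. Between the groups Bcl2l1 differed by 0.052 on the log2 scale (SE 0.16, 95% interval -0.29 to 0.39, edgeR adjusted p = 0.887), and 0.19 without the 3 libraries. Among the members only Bax had a narrower interval than Bcl2l1.

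Mcl1, a short-lived protein that cells must keep making, is on chromosome 3 (chr3:95658788-95663176, plus strand). Its levels were 51.5, 69.8 and 88.3 CPM in libraries labelled ISL1CKO and 53.9, 76.5 and 101 CPM in controls. Only ISL1CKO 2 fell below every control. Mcl1 differed by -0.16 on the log2 scale (SE 0.16, 95% interval -0.51 to 0.18, edgeR adjusted p = 0.606), and by -0.017 without the 3 libraries.

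The effectors BAX and BAK form the pores in the mitochondrial membrane. Bax (chr7:45461697-45466898, minus strand) ran from 138 through a median of 149.8 to 169.5 CPM in libraries labelled ISL1CKO and from 156 through 169.0 to 209 CPM in controls. Except for library 3, libraries labelled ISL1CKO lay below every control, and the spread within a group was the smallest of the set, with a coefficient of variation of 7.03% and 10.8%. For Bax the log2 fold change was -0.21 (SE 0.084, 95% interval -0.38 to -0.027), which did not pass adjustment over all genes (edgeR adjusted p = 0.148). Without the 3 libraries it was -0.22 (edgeR adjusted p = 0.303). Bax shares exonic sequence with Gm45808, a gene model on the same strand that was not among the counted genes.

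Bak1 (chr17:27019810-27029009, minus strand) was scarce, with 6 to 43 counts per library in the group labelled ISL1CKO and 9 to 26 in controls. Its levels were 0.438, 1.42 and 3.21 CPM in the former and 0.748, 1.44 and 1.92 CPM in the latter. The libraries labelled ISL1CKO were spread widely: libraries 1, 4 and 6 lay between 1.98 and 3.21 CPM, above every control, and libraries 2, 3 and 5, those with transcripts of both sexes, between 0.438 and 0.854 CPM. The Bak1 estimate was 0.080 on the log2 scale (SE 0.52, 95% interval -1.04 to 1.20, edgeR adjusted p = 0.950), and 0.73 without the 3 libraries (edgeR adjusted p = 0.555). The summed macrophage markers were 146, 749 and 245 CPM in ISL1CKO 1, 4 and 6. In ISL1CKO 2, 3 and 5 they were 1.63, 95.7 and 1.46 CPM. The sums in controls 1 to 6 were 394, 2.07, 8.09, 67.3, 2.38 and 8.20 CPM. In the same order of controls, Bak1 was at 0.748, 1.63, 1.92, 1.26, 1.11 and 1.90 CPM. The part of macrophage markers in the Bak1 level was not tested beyond the fit with macrophage and Schwann cell markers as covariates, which gave -0.54. Bak1 overlaps exons of Ggnbp1 on the opposite strand, which held 1 to 10 counts per library. The interval of Bak1 spans folds of 0.487 to 2.29, so a change within that range could not be told from the spread between these libraries.

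The BH3-only members relay death signals to the rest of the family, and 1 of the 3 among the 9 members passed the test. Bid, Bad and Bmf, BH3-only genes outside the 9 members, did not pass (edgeR adjusted p = 0.494, 0.837 and 0.935). Bcl2l11 encodes BIM, which binds every pro-survival member and is induced in neurons that lose trophic support (chr2:128126038-128162547, plus strand). Its levels were 1.46, 5.96 and 8.81 CPM in libraries labelled ISL1CKO and 1.48, 7.11 and 15.3 CPM in controls, from 20 to 184 counts per library. The groups overlapped throughout, with control 1 alone above 9 CPM. The Bcl2l11 difference was -0.35 on the log2 scale (SE 0.50, 95% interval -1.43 to 0.72, edgeR adjusted p = 0.727), and -0.37 without the 3 libraries.

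Bbc3 encodes PUMA, a classical target of the tumour suppressor TRP53 (chr7:16308393-16318205, plus strand). Its levels were 10.2, 15.5 and 18.8 CPM in libraries labelled ISL1CKO and 12.8, 21.2 and 32.3 CPM in controls. The means were 15.4 ± 2.97 and 21.2 ± 6.64 CPM (SD, n = 6). Only ISL1CKO 3 fell below every control, and controls 2, 3, 5 and 6 lay above every library labelled ISL1CKO. The Bbc3 difference was -0.46 on the log2 scale (SE 0.22, 95% interval -0.94 to 0.012, edgeR adjusted p = 0.227), and -0.40 without the 3 libraries. Trp53 itself differed by 0.13 on the log2 scale (SE 0.094, 95% interval -0.066 to 0.33, edgeR adjusted p = 0.431).

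Hrk encodes Harakiri, a BH3-only protein best known from neurons of the peripheral nervous system deprived of nerve growth factor, where its transcript is induced (chr5:118164648-118189478, plus strand). Its lowest, median and highest levels were 21.0, 22.8 and 38.4 CPM in libraries labelled ISL1CKO and 0.963, 4.07 and 9.18 CPM in controls. All 6 libraries labelled ISL1CKO lay above all 6 controls, and the lowest of them was more than 2 times the highest control. In counts this was 270 to 527 reads against 13 to 112, so every library was above the 3-count floor. The means were 25.3 ± 6.68 and 4.74 ± 3.34 CPM (SD, n = 6), and the log2 fold change was 2.41 (SE 0.43, 95% interval 1.49 to 3.34), a fold of 5.33 with an interval of 2.80 to 10.1. The edgeR adjusted p was 0.00198, and Hrk ranked 442 by p among all genes tested.

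Within the groups, 5 of the 6 libraries labelled ISL1CKO lay within 21.0 to 25.5 CPM, while controls ranged from 0.963 to 9.18 CPM. The coefficient of variation was 26.4% and 70.4%, respectively, with no test of that difference made. The 3 libraries with transcripts of both sexes held 21.0 to 38.4 CPM and the other 3 labelled ISL1CKO held 21.3 to 24.1 CPM. Without the former, Hrk was higher by 2.22 on the log2 scale (edgeR adjusted p = 0.0402). It was 2.26 without ISL1CKO 5, the highest library (edgeR adjusted p = 0.00615), and 2.95 with macrophage and Schwann cell markers as covariates (edgeR adjusted p = 0.00370).

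Some library measures moved with the groups alongside Hrk. Mitochondrial transcripts took 0.845% to 1.02% of the counts in libraries labelled ISL1CKO and 1.05% to 1.65% in controls. Of the 8 mesenchyme and fibroblast markers, which summed to 62.7 to 112.8 CPM and 38.5 to 83.96 CPM, 4 were tested and 2, Col3a1 and Tbx18, rose in edgeR. The sums overlapped between the groups and mix genes of opposite direction. In libraries labelled ISL1CKO and in controls, Tbx18 was at means of 39.5 and 1.09 CPM and Pou3f4 at 27.4 and 52.9 CPM. The sum is therefore no measure of mesenchymal RNA as a whole. At an unadjusted p under 0.05, 3 of the tested mesenchyme markers were higher and 1 was lower, Pou3f4, which differed by -0.95 on the log2 scale (SE 0.38, edgeR adjusted p = 0.143) with 5 of 6 libraries labelled ISL1CKO below every control. Twist1, which was too scarce to be tested, was at 0.013 ± 0.032 CPM in libraries labelled ISL1CKO and 1.13 ± 0.749 CPM in controls (SD, n = 6), with all 6 of the former below all controls. Macrophage markers summed to 1.46 to 749 CPM and 2.07 to 394 CPM, Schwann cell and satellite glia markers to 34.8 to 250.5 CPM and 31.9 to 185 CPM, and markers of proliferating cells to 85.7 to 369 CPM and 75.8 to 182 CPM, with 0 called by edgeR, DESeq2 or limma-voom in each of these lists and an unadjusted p under 0.05 for 1 gene, among the proliferation markers. Hair cell and otic epithelium markers summed to at most 18.1 CPM, and the 2 blood and endothelium markers counted summed to at most 29.6 CPM. No marker in the table was at 3 counts or fewer in every library. The covariate fit held only the macrophage and Schwann cell markers. The part of the other measures in the Hrk result, the mitochondrial share and the mesenchyme markers among them, was not tested.

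Apaf1, the adaptor that forms the apoptosome, is on chromosome 10 (chr10:90989311-91082770, minus strand). Its levels were 31.0, 40.0 and 59.8 CPM in libraries labelled ISL1CKO and 22.2, 29.8 and 36.0 CPM in controls. In 4 of 6 libraries labelled ISL1CKO, all but 1 and 3, the level was above every control. Apaf1 differed by 0.55 on the log2 scale (SE 0.18, 95% interval 0.17 to 0.93), which missed the threshold after adjustment over all genes (edgeR adjusted p = 0.0665), and by 0.50 without the 3 libraries (edgeR adjusted p = 0.195). Apaf1 passed the threshold in the DESeq2 Wald test (adjusted p = 0.0297), and in the edgeR test without ISL1CKO 3 (adjusted p = 0.0368) or without control 3 (adjusted p = 0.0495).

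To set the members side by side, levels were divided by the length of the longest annotated transcript, giving CPM per kilobase. In both groups the order began with Bax, Bcl2l1 and Mcl1. In the controls the mean levels per kilobase were 158 for Bax, 84.3 for Bcl2l1, 23.2 for Mcl1, 11.7 for Bbc3, 4.38 for Apaf1, 1.39 for Bcl2l11, 0.954 for Bcl2, 0.881 for Hrk and 0.598 for Bak1. Neighbours in this order whose ranges over the 6 libraries overlapped were Mcl1 with Bbc3, Bcl2l11 with Bcl2, Bcl2 with Hrk, and Hrk with Bak1. In libraries labelled ISL1CKO they were 137 for Bax, 87.4 for Bcl2l1, 20.7 for Mcl1, 8.47 for Bbc3, 6.42 for Apaf1, 4.70 for Hrk, 1.09 for Bcl2l11, 0.633 for Bak1 and 0.580 for Bcl2. There the ranges of Bbc3 and Apaf1, Apaf1 and Hrk, Bcl2l11 and Bak1, and Bak1 and Bcl2 overlapped, while Hrk stood clear of Bcl2l11. Hrk thus held the eighth place in controls and the sixth in libraries labelled ISL1CKO.

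**Figure D3:**
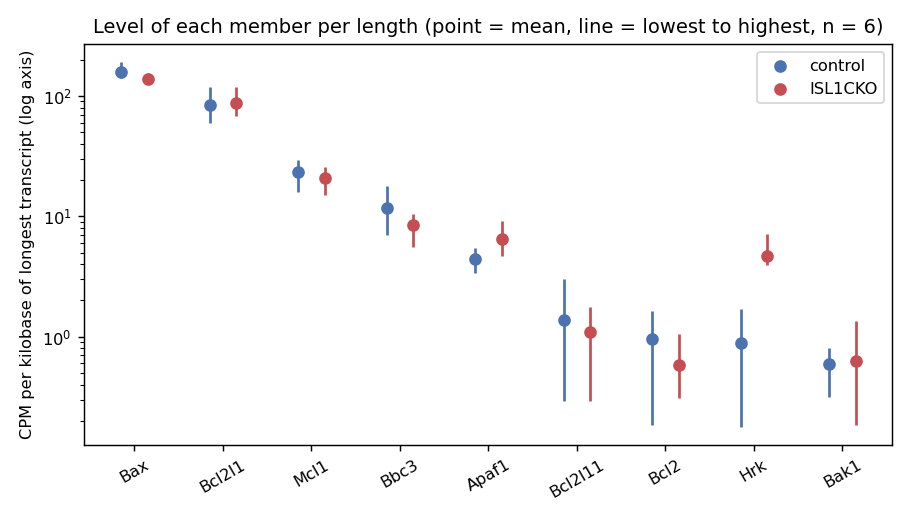
Level of each member in CPM per kilobase of its longest transcript on a log axis, ordered by the control mean, with points for the mean of 6 libraries and lines from the lowest to the highest. Bax is highest in both groups at 158 and 137, and Hrk goes from 0.881 to 4.70, its range in libraries labelled ISL1CKO lying wholly above that of the controls.

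Among the BH3-only members, the share taken by Hrk did not overlap between the groups, while their sum did. The share contains the Hrk level, which did not overlap either, so it is not a separate result. Per kilobase, Hrk made up 32.8% ± 5.60 (SD, n = 6; range 26.5% to 40.1%) of the summed Bcl2l11, Bbc3 and Hrk level in libraries labelled ISL1CKO and 5.80% ± 3.10 (range 1.67% to 9.64%) in controls. The sum itself was 14.3 ± 1.98 CPM per kilobase in the former, ranging from 12.1 to 17.8, and 14.0 ± 3.66 in the latter, ranging from 10.5 to 20.2, so the groups overlapped. On the pro-survival side the summed level of Bcl2, Bcl2l1 and Mcl1 was 108.7 ± 18.7 and 108.5 ± 20.5 CPM per kilobase. Bcl2l1 provided 80.2% ± 3.56 and 77.1% ± 6.51 of it. The BH3-only sum amounted to 13.3% ± 2.35 of the pro-survival sum in libraries labelled ISL1CKO and 13.3% ± 4.13 in controls. These shares describe transcript levels, and no test was made of them. They depend on which genes are in the set, since other BH3-only genes and the pro-survival Bcl2l2 were left out of the sums. In libraries labelled ISL1CKO and in controls, Bad was at 82.0 and 85.3 CPM and Bid at 31.5 and 40.5 CPM. Bmf was at 3.97 and 4.37 CPM and Bcl2l2 at 10.2 and 12.2 CPM, all without division by length.

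**Figure D4:**
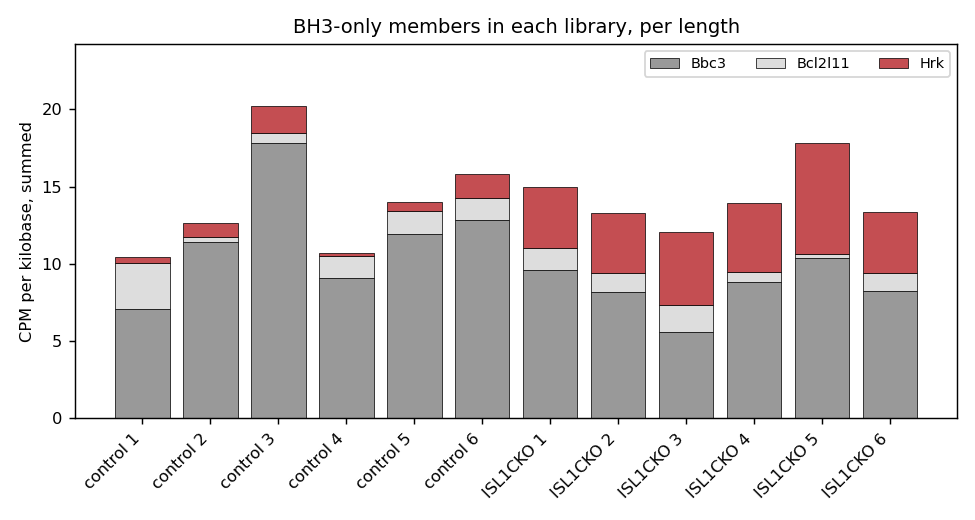
Summed level of the 3 BH3-only members in each library, in CPM per kilobase on an axis from 0, stacked by gene. The red Hrk segment is 1.67% to 9.64% of the bar in the 6 controls and 26.5% to 40.1% in the 6 libraries labelled ISL1CKO, while the bar heights overlap between the groups.

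The genes whose levels varied most like Hrk among the 12 libraries, after each group's mean was subtracted, were Ankrd40 (Pearson r = 0.933, Spearman rho = 0.867), Ctxn1 (r = 0.921, rho = 0.853) and Zbtb39 (r = 0.906, rho = 0.846), out of 14812 genes compared. These are descriptions over 12 libraries that share cell sorting and preparation, and the highest of so many correlations. Zbtb39 was scarce, at means of 1.73 CPM in libraries labelled ISL1CKO and 2.39 CPM in controls. Hrk varied more among controls (coefficient of variation 70.4% against 26.4%), so the controls weigh most in the correlations of these 3 genes. The genes did not follow Hrk between the groups: the log2 fold changes were -0.25 for Ankrd40, -0.059 for Ctxn1 and -0.47 for Zbtb39, with edgeR adjusted p-values of 0.472, 0.720 and 0.670.

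The wider pathway was read from 8 lists of textbook members with 93 genes, of which 88 were in the table and 73 were tested. Of these 73 genes, 1 rose and 6 fell, a share of 9.59% against 10.2% of all genes tested, and their median log2 fold change was -0.057. The 2 shares lie close together. Without the 3 libraries that held transcripts of both sexes, 6 of the genes were called, and fewer genes were called over all genes too.

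Among BCL2 relatives outside the 9 members, 1 of 4 tested pro-death genes passed, namely Bok, a BAX-like effector. Bok stood at 37.3 ± 6.18 CPM in libraries labelled ISL1CKO and 57.6 ± 11.9 CPM in controls (SD, n = 6), and fell by 0.63 on the log2 scale (SE 0.16, edgeR adjusted p = 0.0222). The groups overlapped because control 6, at 36.7 CPM, lay among libraries labelled ISL1CKO. Without the 3 libraries the fall of Bok was of like size, with a log2 fold change of -0.64, but did not pass (edgeR adjusted p = 0.144). It also missed the threshold with marker covariates (0.149), with replicate number as a block (0.0539), without ISL1CKO 5 (0.0504) and without control 4 (0.0532), all edgeR adjusted p-values. None of the 4 tested atypical relatives passed in edgeR or limma-voom, with a median of 0.35. Among them 2 had an unadjusted p under 0.05 and 1, Bnip3, passed in DESeq2. Neither edgeR, DESeq2 nor limma-voom called Bcl2l2, the single tested gene of the other pro-survival list, at -0.27.

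Of the 16 caspases, apoptosome components and released mitochondrial factors, all were tested and 1 passed. Casp6, an executioner caspase that has been tied to the pruning of axons as well as to cell death, stood at 67.9 ± 7.67 CPM in libraries labelled ISL1CKO and 37.4 ± 5.89 CPM in controls (SD, n = 6). The lowest library labelled ISL1CKO was at 56.8 CPM and the highest control at 42.6 CPM, so the groups did not overlap. The log2 fold change of Casp6 was 0.86 (SE 0.13, edgeR adjusted p = 4.2e-04), and 0.87 without the 3 libraries (edgeR adjusted p = 0.0116). Further genes of this list are named for their place in the pathway, chosen after their values were seen. Casp9, the initiator recruited by APAF1, gave -0.019 (edgeR adjusted p = 0.971), and Cycs, which encodes cytochrome c, gave -0.30 (edgeR adjusted p = 0.0614).

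In edgeR, DESeq2 and limma-voom, 0 of the 4 tested inhibitors of apoptosis and 0 of the 6 tested genes of the death receptor arm passed, 0 of them had an unadjusted p under 0.05, and the medians were 0.018 and -0.018. Of the 20 tested upstream regulators of BH3-only genes, 1 passed. Map3k13, a kinase of the stress pathway that leads to JUN, was at 71.8 ± 8.60 CPM in libraries labelled ISL1CKO and 119 ± 25.0 CPM in controls. Map3k13 fell by 0.73 on the log2 scale (SE 0.13, edgeR adjusted p = 0.00239), with no overlap between the groups, and its log2 fold change was -0.73 without the 3 libraries (edgeR adjusted p = 0.0417). Jun, the transcription factor at the end of that pathway, gave 0.32 (SE 0.15, 95% interval -0.0043 to 0.64, edgeR adjusted p = 0.221). The largest estimate of the list was that of Trp73, at 2.87 (95% interval 0.97 to 4.77, edgeR adjusted p = 0.0538), which did not pass. Trp73 was scarce, with 2 to 85 counts per library in the group labelled ISL1CKO and 1 to 23 in controls.

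The neurotrophin receptors and survival kinases held the other 4 genes that passed, all lower, of 18 tested, and the list's median was -0.28. Ntrk2, the receptor for brain-derived neurotrophic factor, was at 53.9 ± 24.4 CPM in libraries labelled ISL1CKO and 377 ± 65.4 CPM in controls (SD, n = 6), a log2 fold change of -2.81 (SE 0.25, edgeR adjusted p = 3.98e-06). Ntrk3, the receptor for neurotrophin-3, was at 104.7 ± 25.9 and 276 ± 41.3 CPM, a log2 fold change of -1.40 (SE 0.16, edgeR adjusted p = 3.97e-05). Mapk3, which encodes the kinase ERK1 downstream of these receptors, gave -0.84 (SE 0.11, edgeR adjusted p = 1.9e-04). Ngfr, the common neurotrophin receptor, which was named after its values were seen, gave -1.07 (SE 0.19, edgeR adjusted p = 0.00177). For each of these 4 genes every library labelled ISL1CKO lay below every control, and without the 3 libraries the log2 fold changes were -2.71, -1.38, -0.81 and -0.91. Ntrk2 and Ntrk3 also belong to the neuronal markers above.

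**Figure D5:**
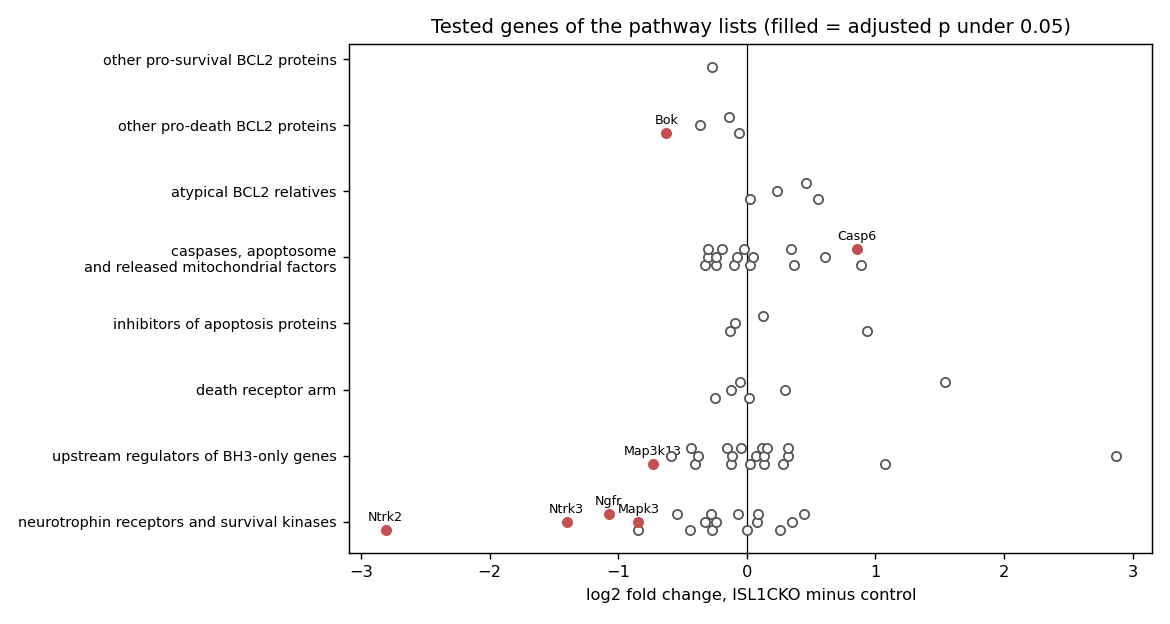
Log2 fold change, ISL1CKO minus control, of the 73 tested genes of the 8 pathway lists, a point per gene with a row per list, filled and named where the edgeR adjusted p is under 0.05. Of the 7 named points, Casp6 at 0.86 lies to the right of 0, and Bok, Map3k13, Mapk3, Ngfr, Ntrk3 and Ntrk2 lie to its left.

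The table gives 1 count per gene, so the isoforms of Bcl2l1, Bcl2l11 and Bax, which differ in activity, could not be told apart. Much of the control of this family acts on the proteins, which were not measured.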

How the data were processed

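RNA was measured in 12 libraries of 100 sorted neurons each, 6 per genotype. The authors deposited whole-number counts per gene, not normalized, and the smallest gene total was 10 counts. The submitters' processing notes name cutadapt 1.18, Bowtie 1.2.2, STAR 2.7.0c, featureCounts and the build GRCm38.p6, without roles or parameters, and the annotation and the use of strand are not given in the sources used here. Each sample was grouped by its label. GENCODE M21 gave symbols and coordinates for 25620 of 25674 identifiers.

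Counts were tested with the edgeR 4.0.16 quasi-likelihood test (R 4.3.3), with filterByExpr at a minimum count of 10, TMM scaling, robust estimation, no covariate and Benjamini-Hochberg adjustment over all tested genes at 0.05. Standard errors (SE) were obtained by dividing the absolute log2 fold change by the root of F. Limits of 3 counts cover counting error only, as PCR copies without molecular identifiers are not independent. BH3 coding stretches were found in the longest reading frame of each member, with 1 match per BCL2 protein. The search used an amino acid pattern that fixes a leucine and an aspartate of the core and limits some other positions. The procedure was tested on simulated data. Alternatives were 2 other scalings, 2 other filters, DESeq2 1.42.0, limma-voom (limma 3.58.1), robust estimation off, a replicate block, marker covariates, removal of mitochondrial and haemoglobin genes, removal of the 3 libraries with transcripts of both sexes, and removal of each library.

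The members and lists were chosen with earlier results of these data known. Named genes were the members, Isl1, Xist with the Y-linked genes, up to 3 called genes of smallest p per list, and the 3 genes most correlated with each of up to 2 called members. Outside this rule, Casp9, Cycs, Ngfr, Trp53, Trp73, Jun, Bnip3, Bcl2l2, Bid, Bad and Bmf were named from the pathway lists. Marker genes and genes that overlap members were also named outside it. Of the listed genes, 5 pathway genes were not analysed here.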

Additional observations from a re-analysis of the deposited data

Results flagged for a closer look

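The Hrk level in ISL1CKO 5 was 38.4 CPM, apart from the other 5 libraries of that group, which lay between 21.0 and 25.5 CPM. The gap to its nearest neighbour was 0.742 of the group's whole range, above Dixon's 95% critical value for 6 samples. It was the only such value among the 32 group values checked, where a rate of 1 in 20 gives 1.6. Without that library the log2 fold change of Hrk was 2.26. ISL1CKO 5 was also among the libraries with transcripts of both sexes.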

How the results depend on the processing

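Hrk stayed higher and past the threshold under all 23 alternatives, with log2 fold changes of 2.20 to 2.95 and adjusted p-values of 1.10e-07 to 0.0402. The number of called members was 2 under the DESeq2 Wald test and 1 to 2 when each library was left out in turn. The number of called pathway genes was 15 under the DESeq2 Wald test. These DESeq2 counts are given without the share of all genes that DESeq2 called, so they are not compared with the edgeR shares. Over all genes the 1511 calls became 767 without the 3 libraries that held transcripts of both sexes, where fewer samples were compared, and 942 with marker covariates. The sign of weak estimates changed: Bak1 gave -0.19 under limma-voom, -0.54 with marker covariates and -0.17 with the replicate block, Bcl2l1 gave -0.21 and Mcl1 0.040 with marker covariates, and the cause was not tested. With each library left out in turn, the values ran from -0.29 to 0.27 for Bak1, -0.056 to 0.17 for Bcl2l1 and -0.57 to 0.034 for Bcl2l11, whose sign changed without control 1. Bak1 has no value where a mean of at least 5 CPM was required, because it was then not tested. The deviations of libraries with the same number correlated at -0.0560 to 0.152 and not all above 0.1. For controls 3 and 5 the best match was the ISL1CKO library of the same number, and for the other controls it was not. The labels do not say what a number marks, so these values cannot decide whether the libraries are paired. With the replicate block, 1450 genes, 1 member and 7 pathway genes were called, Cycs entering and Bok leaving. The median log2 fold change of all genes was 0.0045 with TMM, 0.0042 with DESeq2 size factors and -0.020 with upper quartile scaling, and upper quartile scaling gave 673 higher and 814 lower calls in place of 742 and 769. Order per kilobase over exon length in place of the longest transcript put Hrk seventh in the controls and sixth in the libraries labelled ISL1CKO. Bak1, Bcl2 and Bcl2l11 had the fewest counts on average, 6 to 43, 18 to 140 and 20 to 184 counts per library, and the spread between libraries also enters their intervals.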
